A study of Homo sapiens with 6 samples.

Results

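The interleukin-6 (IL-6) family is described here by 10 genes, chosen by name from the 25940 gene names on the array: the ligands IL6, IL11, LIF and CLCF1, the receptor chains IL6R, IL6ST, OSMR and LIFR, the transcription factor STAT3 and its inhibitor SOCS3. The array carried 19 probes for them, and every one is accounted for. LIF, OSMR, IL6R and IL11 transcripts were 5.41-fold to 12.9-fold higher in pLB than in pLUM cells, each on 1 probe. The other LIF probe was not called, at a log2 difference of 0.82. Transcripts of IL6ST, the signalling chain that most of the family shares, were 3.88-fold lower on the probe that represents the gene. They were lower on each of the 7 IL6ST probes. SOCS3 was 2.11-fold lower, STAT3 differed by less than the 2-fold threshold, LIFR did not pass the test, and IL6 itself was not well above background on any array. The lines differed widely as a whole: 21.9% of all 23105 probes tested were called higher in pLB and 23.7% lower.

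Most IL-6 family cytokines bind a ligand-specific receptor chain and signal through gp130, the product of IL6ST. Receptor assembly activates Janus kinases (JAKs) and then STAT3, which raises its own inhibitor SOCS3. In breast cancer cells the family is best known for STAT3 activation in hormone receptor-negative disease and for crosstalk with estrogen signaling.

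RNA was measured on 6 one-color Agilent arrays, 3 of pLUM and 3 of pLB. The labels give T47D, a luminal human breast cancer cell line, as the parent of both. The study's methods name its subline T47Dco, grown as tumor xenografts in ovariectomized, immunodeficient (NSG) mice. pLUM (pure luminal, CLD3+ CD49f-) came from a tumor grown with estrogen (E). It was cultured and maintained with E, and was profiled after 72 h in 1 nM E. pLB (pure luminobasal, CLD3- CD49f+) came from a tumor grown with E plus progesterone and was kept estrogen-withdrawn (EWD). The first culture lasted about 2 months for pLUM and about 2.5 months for pLB. Each was sorted on the surface markers CLD3 and CD49f, cultured again, and resorted 2 times, so each group is 1 line, sampled as triplicate sorts. Both were grown in 5% charcoal-stripped serum, then fixed and sorted on cytokeratin 5 (CK5), but which CK5 fraction was hybridized is not given. Line, tumor of origin, hormone and length of first culture coincide on every array and cannot be told apart. The spread between arrays is that between sorts of 1 line, and fewer cells expressing a gene cannot be told apart from less RNA per cell.

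Values are log2 signals relative to each array's 75th percentile, so 0 is the level of that percentile. "Well above background" is the scanner software's own flag. A probe was called when the lines differed at least 2-fold with an adjusted p under 0.05 in limma. A gene is represented by its tested probe with the highest mean, and levels are compared between lines but never between probes. The array's 75th percentile ran from 449 to 869 in intensity, and 21285 to 22775 of 34127 probes were well above background on an array. Correlation between arrays was 0.984 to 0.991 within pLUM, 0.972 to 0.989 within pLB and 0.780 to 0.806 between the lines. The labels held against their markers: 7 of 8 luminal markers were called lower and 8 of 8 luminobasal markers higher in pLB. All pLUM arrays and pLB replicate 1 shared slide 1, while pLB replicates 2 and 3 were on slide 2.

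The probes that carry the main findings are shown by the first 30 bases of their sequence, all in lower case because no part is singled out, with the hg19 position of the full probe. LIF probe 1 lies at chr22:30636713-30636772 and LIF probe 2 at chr22:30639661-30639720, both on the minus strand. They are set side by side because they gave different results.
LIF probe 1: catttccctgcagatggtacagatgttcct
LIF probe 2: gtcttccagaagaagaagctgggctgtcaa
IL11 (chr19:55875788-55875847, minus strand), IL6R (chr1:154440037-154440096, plus strand) and OSMR (chr5:38933387-38933446, plus strand) each have 1 probe, shown as those of the other members that rose.
IL11: gtgtatgattgtctgtattttacagaattt
IL6R: attttagaccctattgctgcttgaggcaac
OSMR: agacaaggacagtctcccaacaaacccagt
Of the IL6ST probes, numbered 5′ to 3′ along the gene on the minus strand, probe 2 (chr5:55260037-55260096), probe 4 (chr5:55238513-55238572) and probe 6 (chr5:55231134-55231193) are shown: probe 4 represents the gene, and the others had the largest differences.
IL6ST probe 2: ccacctcatgcactgttgattattctactg
IL6ST probe 4: aaacacatctggcctaatgttccagatcct
IL6ST probe 6: agcttagttttagaaacctgtggacattca

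The 250 bases before the start site are shown from RefSeq (GRCh38.p14) for IL11, which rose, for IL6ST, which fell, and for IL6, which was not detected, because each holds a motif match. Searched on both strands were the STAT motif TTCNNNGAA, the AP-1 motif TGANTCA, the NF-kB motif and the estrogen response element; capitals mark a match.
IL11 (chr19:55370464-55370713, minus strand): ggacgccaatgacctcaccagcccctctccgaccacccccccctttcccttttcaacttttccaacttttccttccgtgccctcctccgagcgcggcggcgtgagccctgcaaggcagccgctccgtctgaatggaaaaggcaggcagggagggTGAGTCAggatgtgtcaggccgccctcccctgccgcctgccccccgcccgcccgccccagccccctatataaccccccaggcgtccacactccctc
IL6ST (chr5:55994964-55995213, minus strand): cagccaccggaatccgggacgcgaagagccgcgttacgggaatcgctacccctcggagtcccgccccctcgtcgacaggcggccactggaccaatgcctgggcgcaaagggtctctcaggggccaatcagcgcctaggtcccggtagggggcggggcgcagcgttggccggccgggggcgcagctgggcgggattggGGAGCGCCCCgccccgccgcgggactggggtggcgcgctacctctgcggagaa
IL6 (chr7:22726950-22727199, plus strand): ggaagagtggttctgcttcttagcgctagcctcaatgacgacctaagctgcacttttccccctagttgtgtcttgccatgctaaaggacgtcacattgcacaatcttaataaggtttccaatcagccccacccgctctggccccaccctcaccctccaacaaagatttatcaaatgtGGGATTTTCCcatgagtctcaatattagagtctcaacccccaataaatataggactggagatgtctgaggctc
The IL11 match is to AP-1 and begins 96 bases before the start, and those of IL6ST and IL6 are to NF-kB and begin 53 and 73 bases before it. LIFR had a STAT match in 2 of its 3 entries, while IL6R, OSMR, STAT3 and SOCS3 had no match. Of 35116 RefSeq promoter windows of this length, 6.57% held the STAT motif, 6.57% AP-1, 9.96% NF-kB and 0.0399% the estrogen response element. A match describes these letters and does not show that a factor binds there. No promoter entry was matched for LIF or CLCF1.

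Among the ligands, LIF and IL11 rose in pLB. LIF (leukemia inhibitory factor, which signals through LIFR and gp130) read -4.12, -4.58 and -4.11 on pLUM replicates 1 to 3 and -0.73, -0.38 and -0.64 on pLB replicates 1 to 3 with probe 1. The lines did not overlap, and LIF was 12.9-fold higher in pLB (log2 3.69, SE 0.20, limma adjusted p = 7.01e-06). IL11, which signals through IL11RA and gp130, read -4.38, -4.30 and -3.98 in pLUM and -1.82, -1.78 and -1.75 in pLB. Every pLB array was above every pLUM array, and the difference was 5.41-fold (log2 2.44, SE 0.17, limma adjusted p = 2.21e-05). IL11 missed the 2-fold threshold when background was corrected by normexp, at a log2 difference of 0.94.

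LIF probe 2 did not pass the test. It read -6.49, -5.91 and -4.10 in pLUM and -4.81, -4.81 and -4.41 in pLB, a log2 difference of 0.82 (SE 0.57, 95% confidence interval -0.51 to 2.16, limma adjusted p = 0.24). It was well above background on all pLB arrays but on pLUM replicate 3 alone, and that array was higher than every pLB array. Without pLUM replicate 3 the probe was called higher in pLB (log2 1.53, limma adjusted p = 0.0036). With normexp background correction the sign of probe 2 turned, to -0.42, and it was again not called.

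IL6 was not well above background on any array with either of its 2 probes. The probe spotted 10 times on each array read -7.31, -7.26 and -7.51 in pLUM and -7.20, -5.96 and -6.51 in pLB, which is 3.0 to 4.1 and 5.2 to 11.8 in intensity. No spot on the arrays was flagged well above background below an intensity of 12.3, and of the 10 IL6 spots on pLB replicate 2, the highest array, 3 carried the flag. The other IL6 probe read -6.42, -7.36 and -7.33 in pLUM and -7.33, -7.66 and -6.64 in pLB, and no fold is given for either. CLCF1, a ligand that signals through LIFR and gp130, read -7.36, -6.46 and -6.32 in pLUM and -5.74, -5.06 and -4.91 in pLB. The lines did not overlap, but CLCF1 was well above background on pLB replicate 2 alone, so it was not tested and no fold is given.

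**Figure D1:**
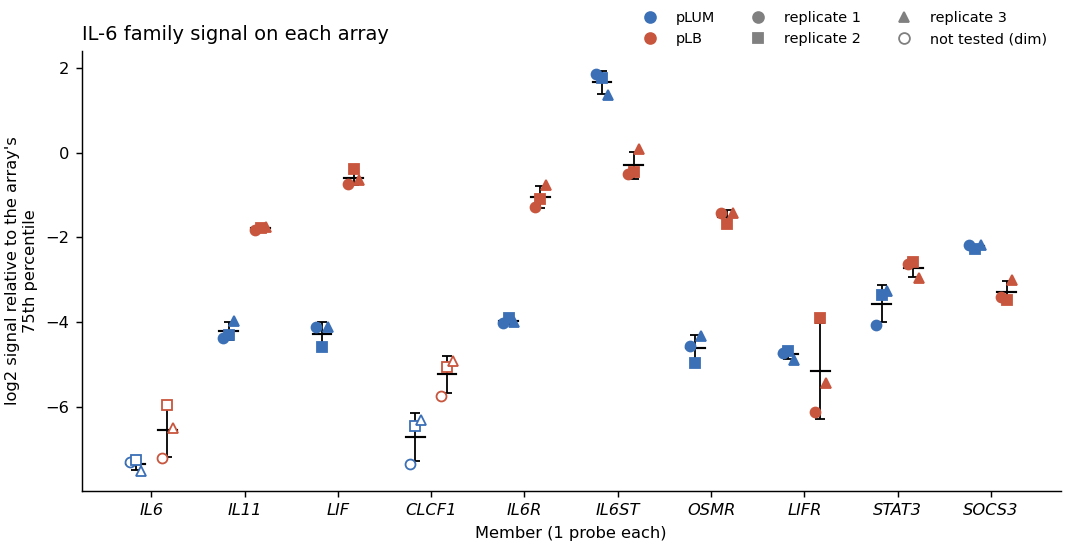
Log2 signal relative to the array's 75th percentile (vertical axis) for 1 probe of each IL-6 family member (horizontal axis) on the 3 pLUM arrays (blue) and 3 pLB arrays (red). Symbols stand for replicates, lines for mean ± SD over 3 arrays, and open symbols for probes too dim to test; levels are to be compared between lines, not between genes. LIF, IL11, IL6R and OSMR lie higher in every pLB array than in any pLUM array, IL6ST and SOCS3 lie lower, and pLB replicate 2 stands apart for LIFR.

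The ligand-binding chains IL6R and OSMR rose in pLB, while the shared chain IL6ST fell. IL6R, which captures IL-6 and presents it to gp130, read -4.03, -3.90 and -3.99 in pLUM and -1.27, -1.08 and -0.77 in pLB. It was 7.63-fold higher in pLB (log2 2.93, SE 0.18, limma adjusted p = 1.26e-05). OSMR, which pairs with gp130 to bind oncostatin M and with IL31RA to bind IL-31, read -4.56, -4.97 and -4.33 in pLUM and -1.42, -1.69 and -1.43 in pLB. It was 8.60-fold higher in pLB (log2 3.10, SE 0.21, limma adjusted p = 1.89e-05). For neither gene did the lines overlap. In pLUM the representative probes of LIF, IL11, IL6R and OSMR had intensities of only 17.9 to 37.6, against 133 to 535 in pLB. The lowest intensity counted as well above background was 12.3 to 13.0 on the pLUM arrays and 13.3 to 20.3 on the pLB arrays.

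IL6ST was called lower in pLB on all 7 of its probes, with no overlap between the lines on any. Probe 4, which represents the gene, read 1.87, 1.78 and 1.36 in pLUM and -0.49, -0.45 and 0.08 in pLB, a 3.88-fold lower level (log2 -1.96, SE 0.23, limma adjusted p = 0.000271). Probe 2 fell furthest, 12.7-fold (log2 -3.66, SE 0.34), from 1.08, 0.85 and 0.19 in pLUM to -3.53, -2.93 and -2.42 in pLB. Probe 6 fell 12.1-fold (log2 -3.59, SE 0.25), from -0.33, -0.43 and -0.74 to -4.44, -4.21 and -3.63. The remaining IL6ST probes were 5.44-fold (probe 1), 5.37-fold (probe 3), 3.98-fold (probe 5) and 3.31-fold lower (probe 7). Probe 7 also lists a noncoding RefSeq transcript of MEIS3P1, and its annotated position covers 15 bases, so which transcript it reads is uncertain.

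The IL6ST probes agreed in direction but not in size. Relative to probe 4 on the same array, probe 2 ran from -1.17 to -0.79 in pLUM and from -3.04 to -2.48 in pLB, and probe 6 from -2.21 to -2.10 and from -3.95 to -3.71. In pLB these gaps to probe 4 were thus shifted by -1.71 and -1.63 on the log2 scale. Probe 1 was shifted by -0.49 without overlap, and probes 3, 5 and 7 overlapped between the lines. The exact two-sided permutation p was 0.1 for probes 1, 2 and 6, the smallest that 3 against 3 arrays allow, and 0.2 to 1 for the other IL6ST probes, over 6 comparisons with probe 4. The probes with the largest falls are not neighbors along the gene. pLB replicate 3 was the highest pLB array on all 7 probes and pLUM replicate 3 the lowest pLUM array on 6 of 7.

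**Figure D2:**
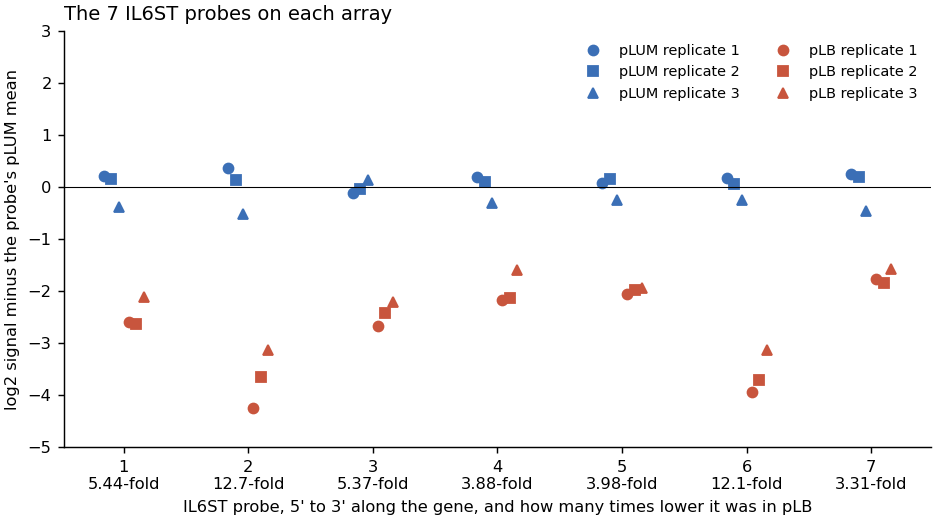
Log2 signal minus the probe's own pLUM mean (vertical axis) for the 7 IL6ST probes, ordered 5′ to 3′ along the gene (horizontal axis, with the number of times lower in pLB), on each array. All pLB arrays (red) lie below all pLUM arrays (blue) on every probe, and probes 2 and 6, at 12.7-fold and 12.1-fold, lie lowest.

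LIFR, the chain that binds LIF and joins it to gp130, was not called. Its single probe read -4.72, -4.68 and -4.89 in pLUM, with an SD of 0.11, and -6.12, -3.90 and -5.43 in pLB, with an SD of 1.13. pLB replicate 2 was higher than every pLUM array and was the pLB array on which LIFR was well above background; the other pLB arrays were lower than every pLUM array. The log2 difference was -0.38 (SE 0.51, 95% confidence interval -1.59 to 0.82, limma adjusted p = 0.54). Without pLB replicate 2 LIFR was called lower (log2 -1.01, limma adjusted p = 0.019), and without pLB replicate 1 the difference was 0.10. LIFR therefore has no settled direction on these arrays.

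STAT3, the transcription factor that gp130 activates, was higher in pLB by less than the 2-fold threshold. Its representative probe read -4.07, -3.36 and -3.27 in pLUM and -2.63, -2.57 and -2.97 in pLB, so the lines did not overlap. The difference was 1.79-fold (log2 0.84, SE 0.26, limma adjusted p = 0.0228), and it fell to 0.00 on the log2 scale with normexp background correction. The other STAT3 probe, spotted 10 times on each array, read -4.67, -4.71 and -4.02 in pLUM and -3.82, -3.83 and -4.91 in pLB. Those values overlapped (log2 0.28, SE 0.35, 95% confidence interval -0.54 to 1.1, limma adjusted p = 0.51). Arrays measure STAT3 transcript and not its phosphorylation.

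SOCS3, which binds gp130 and JAKs and switches the pathway off, fell in pLB. It read -2.19, -2.26 and -2.19 in pLUM and -3.40, -3.48 and -2.99 in pLB, a 2.11-fold lower level without overlap (log2 -1.08, SE 0.18, limma adjusted p = 0.00166). The call lay close to the 2-fold threshold and was lost without pLB replicate 2 (log2 -0.98), with normexp (log2 -0.86) and with spike-in scaling (log2 -0.85).

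**Figure D3:**
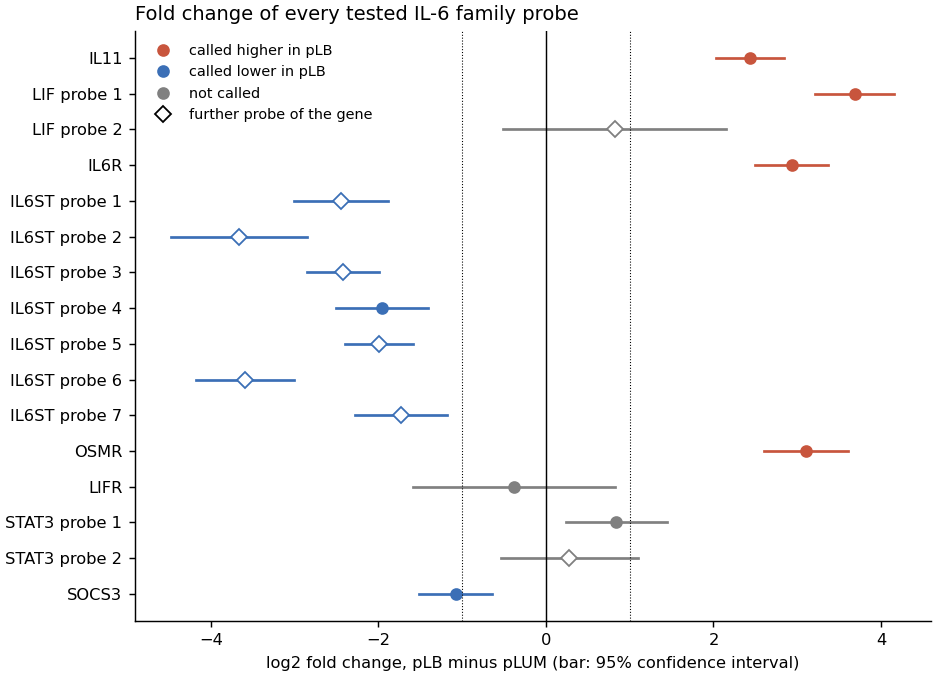
Log2 fold change, pLB minus pLUM, with its 95% confidence interval (horizontal axis) for the 16 tested IL-6 family probes (vertical axis; IL6ST probes numbered 5′ to 3′). Filled circles are the representative probes, open diamonds the further probes of a gene, dotted lines 2-fold, and color the call; LIF probe 1 and IL6ST probe 2 have the largest rise and fall, at 3.69 and -3.66.

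Of the 16 member probes tested, 4 were called higher in pLB, against a background of 21.9% of all 23105 probes tested, and 8 lower, against 23.7%. Of the lower probes 7 were of IL6ST. The lines did not overlap for 5 member probes that were higher and 8 that were lower, where 34.3% and 33.8% of all probes did not. By gene, 4 of the 8 members tested were higher, where 22.7% of all 17670 genes tested were, and 2 of 8 were lower, a share close to the 23% of all genes. The lines did not overlap for 5 of the 8 higher and 2 of the 8 lower, where 35.7% and 33.4% of all genes did not. The median log2 fold change over the 8 members was 1.64 and over all genes 0.04. The members and the gene lists below were chosen with earlier results of these arrays known, so their counts and medians are descriptive only. Within slide 1, pLB replicate 1 minus the pLUM mean was 3.54 for LIF, 2.40 for IL11, 2.70 for IL6R, 3.20 for OSMR, -2.16 for IL6ST, -1.19 for SOCS3, 0.93 for STAT3 and -1.35 for LIFR, on the log2 scale. Slide 1 holds a single pLB array, so these values have no pLB spread, and slide 2 holds no pLUM array. Of these, LIFR alone moved by more than 1.5 times in fold from the value over all arrays.

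**Figure D4:**
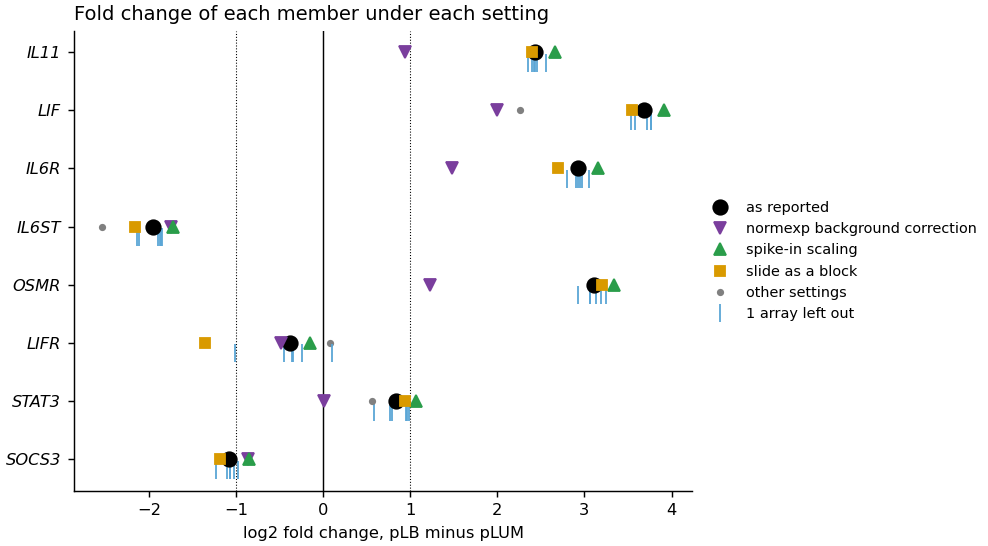
Log2 fold change, pLB minus pLUM (horizontal axis), of the representative probe of each tested member (vertical axis) as reported and under each alternative setting; dotted lines mark 2-fold. Normexp background correction draws LIF, IL11, IL6R and OSMR toward 0, to 2.00, 0.94, 1.48 and 1.23, and LIFR lies on both sides of 0.

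Other ligands and receptors of the family were mixed. Of 10 listed genes 9 were tested, 3 were called higher and 2 lower in pLB, against 22.7% and 23% of all genes, with a median log2 fold change of 0.01. IL31RA, the partner of OSMR in the IL-31 receptor, stayed near background in all of pLUM and was at least 4.61-fold higher in pLB. EBI3, a subunit of IL-27, was likewise well above background in pLB alone and at least 2.85-fold higher. IL27RA, a receptor chain of IL-27 that pairs with gp130, rose 3.80-fold (limma adjusted p = 3.88e-05). IL27, the other IL-27 subunit, was not well above background in pLB and was at least 1.55-fold lower there. IL31RA, EBI3 and IL27 passed the filter through 1 line alone, so their calls rest on fitted values and no p is given. With normexp IL31RA, EBI3 and IL27 lost their calls, at log2 differences of 0.38, 0.04 and -0.86, and IL27 lost its call with the signal floor also, at -0.64.

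IL11RA, the receptor of IL-11, fell while its ligand rose. It read -1.83, -1.91 and -1.21 in pLUM and -3.51, -3.48 and -3.59 in pLB, a 3.67-fold lower level without overlap (limma adjusted p = 0.000264). The other genes that share a receptor chain with the members were not called: the log2 difference was -0.50 for OSM (oncostatin M), well above background on 3 arrays, 0.00 for CTF1 (cardiotrophin 1), 0.01 for CNTF (ciliary neurotrophic factor) and 0.14 for CNTFR, the CNTF receptor. IL31, the ligand of IL31RA and OSMR, was too dim to test.

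No kinase or other STAT was called higher, and 3 of the 8 tested, of 10 listed, were called lower, against 22.7% higher and 23% lower of all genes, with a median log2 fold change of -0.73. STAT2, which acts in interferon signaling, fell 2.92-fold (limma adjusted p = 0.000351), TYK2, a JAK used by gp130, 2.46-fold (limma adjusted p = 0.0065) and JAK3, the kinase of the common gamma chain receptors, 2.30-fold (limma adjusted p = 0.00161). JAK1, the main kinase on gp130, differed by 0.72 on the log2 scale and JAK2 by -0.37, both short of 2-fold. STAT4 and STAT5A were too dim to test. TYK2 fell just short of 2-fold with normexp (log2 -0.998) and JAK3 with spike-in scaling (-0.97) and the mean of the probes (-0.99).

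Among the negative regulators other than SOCS3, 4 of the 15 tested, of 16 listed, were called higher and 1 lower, with a median log2 fold change of 0.35. The share higher is close to the 22.7% of all genes, and 23% of all genes were lower. SOCS2, an inhibitor of growth hormone signaling, was not well above background in pLUM and was at least 27.5-fold higher in pLB. SOCS1, an inhibitor of JAKs, read -4.10, -4.15 and -4.19 in pLUM and -2.04, -1.78 and -1.58 in pLB, a 5.08-fold rise (limma adjusted p = 2.98e-05) where SOCS3 fell. PTPN11, the phosphatase SHP2 that docks on gp130, rose 2.56-fold (limma adjusted p = 0.000368) and PIAS2, a SUMO ligase, 2.46-fold (limma adjusted p = 0.00125), while PIAS3, which inhibits STAT3, fell 2.06-fold (limma adjusted p = 0.000639). SOCS1 lost its call with normexp (log2 0.77), and PIAS3 with normexp (-0.96) and spike-in scaling (-0.81).

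Genes of IL6R shedding, the cleavage that releases soluble receptor, were all called, 4 of 5 higher and 1 lower, against 22.7% and 23% of all genes, with a median log2 fold change of 1.24. The proteases ADAM10, at 7.99-fold (limma adjusted p = 9.39e-06), and ADAM17, at 2.30-fold (limma adjusted p = 0.000632), rose in pLB. TIMP3, an inhibitor of ADAM17, also rose: it was not well above background in pLUM, reading -6.23, -5.45 and -6.17, and read 1.67, 1.43 and 1.39 in pLB, at least 118-fold higher. Of the rhomboid-like carriers of ADAM17, RHBDF2 rose 2.36-fold (limma adjusted p = 0.000921) and RHBDF1 fell 2.01-fold (limma adjusted p = 0.00331). ADAM17 lost its call with normexp (log2 0.96), and RHBDF1 with normexp (-0.89), with spike-in scaling (-0.78), without pLUM replicate 3 (-0.84) and without pLB replicate 1 (-0.95).

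Of 25 genes that STAT3 is known to bind or raise, 18 were tested, 10 were called higher and 2 lower in pLB, against 22.7% and 23% of all genes, with a median log2 fold change of 1.30. Many other factors regulate these genes, and the list was written with earlier results of these arrays known, so its count is no measure of STAT3 activity. The kinase PIM1 read -3.54, -3.38 and -3.04 in pLUM and 0.90, 0.92 and 1.39 in pLB, a 20.9-fold rise (limma adjusted p = 4.47e-06). The adhesion molecule ICAM1 rose 16.6-fold (limma adjusted p = 2.06e-06), the protease inhibitor TIMP1 7.77-fold (limma adjusted p = 4.99e-05), the transcription factor MYC 5.79-fold (limma adjusted p = 7.39e-05) and the receptor TNFRSF1A 4.37-fold (limma adjusted p = 2.74e-05). SAA1, an acute-phase protein, was called 6.37-fold higher (limma adjusted p = 0.0272) but was well above background on 1 pLUM and 2 pLB arrays, and SAA2 is a near-identical copy. SAA1 lost its call with normexp (log2 0.11), with the signal floor (1.25), under the methods' test and without pLUM replicate 1, pLUM replicate 3 or pLB replicate 1 (1.88 to 2.33).

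The remaining genes called higher on that list were LCN2, CCND1, CEBPB and JUNB, at 2.33-fold to 3.59-fold, of which LCN2, CCND1 and JUNB lost their calls with normexp (log2 0.66, 0.43 and 0.12). SERPINA3, an acute-phase protease inhibitor, fell 5.27-fold (limma adjusted p = 2.33e-05) and the repressor BCL6 2.28-fold (limma adjusted p = 0.000423; log2 -0.96, not called, with spike-in scaling). SERPINA3 and SOCS3, both known to be raised by STAT3, moved opposite to PIM1 and ICAM1, and STAT3 activity was not measured. IRF1, A2M, FGG, HP, CRP, SAA2 and LBP were too dim to test.

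**Figure D5:**
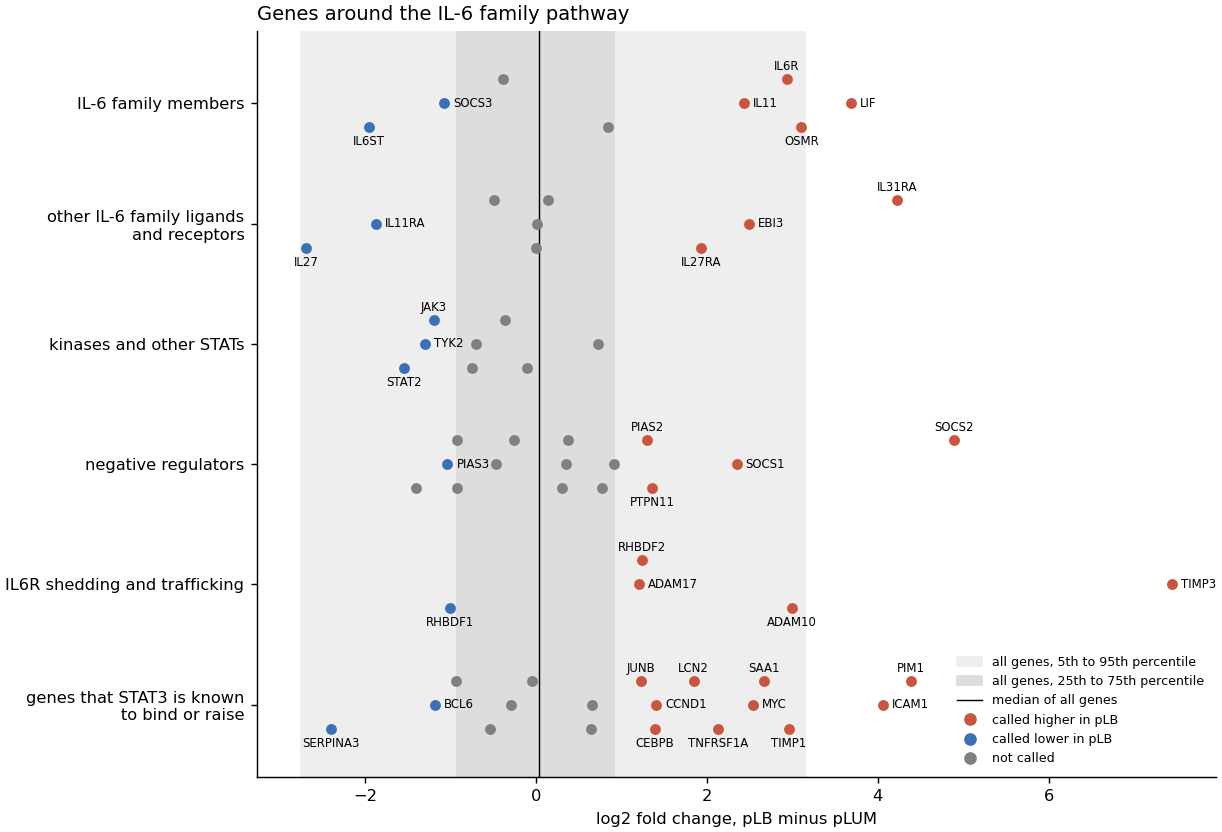
Log2 fold change, pLB minus pLUM (horizontal axis), of each tested gene of the IL-6 family members and the 5 pathway lists (vertical axis), by representative probe; called genes are named and colored. Shaded bands span the 5th to 95th (-2.76 to 3.14) and 25th to 75th percentiles (-0.93 to 0.92) of all tested genes. LIF, IL31RA, SOCS2, TIMP3, PIM1 and ICAM1 lie above the wider band. IL31RA, EBI3, IL27, SOCS2 and TIMP3 were at background in 1 line, so their points are fitted values, with bounds given in the text.

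Markers of cell types that make IL-6 family ligands were measured on the same arrays. The tumors grew in mice, so stromal cells carried over from the host would be mouse cells, which probes for human transcripts may not read. A marker without signal therefore does not show that such cells were absent. Of 8 fibroblast markers, COL3A1, PDGFRA, PDGFRB, DCN, LUM and FAP were not well above background on any array. COL1A2 was at least 11.5-fold higher in pLB (well above background on all pLB and no pLUM arrays). COL1A1 had a log2 difference of -0.56 (limma adjusted p = 0.12) and made up most of the list's summed level relative to the 75th percentile, 0.779 to 0.976 in pLUM and 0.796 to 1.16 in pLB. Of 6 endothelial markers, PECAM1, KDR, TEK and CLDN5 were not well above background on any array. VWF was at least 1.80-fold higher in pLB (well above background on all pLB and no pLUM arrays). CDH5, well above background on all 6 arrays, had a log2 difference of 0.51 (limma adjusted p = 0.26). The endothelial sums were 0.0834 to 0.120 in pLUM and 0.104 to 0.223 in pLB. Of 7 leukocyte markers on the array 3 were called higher in pLB, CD79A by 18.4-fold, CD68 by 2.87-fold and AIF1 by 2.15-fold. PTPRC, which defines leukocytes, had a log2 difference of -0.47 on its representative probe (limma adjusted p = 0.41). A second tested PTPRC probe was called lower in pLB (log2 -1.20, limma adjusted p = 0.00453). The other PTPRC probes were not well above background on any array. The summed level of the 7 markers was 1.06 to 1.77 in pLUM and 15.4 to 34.3 in pLB. CD79A carried nearly all of it, reading 0.49, 0.16 and -0.24 in pLUM and 3.92, 4.01 and 5.08 in pLB, while no other leukocyte marker read above -2.55 on any array. The part of these markers in the differences above was not tested.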

How the data were processed

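RNA of 3 pLUM and 3 pLB sorts was hybridized to one-color Agilent 4x44K arrays. Per the file headers, the authors deposited intensity values from Agilent Feature Extraction 10.10.1.1 (background-subtracted processed signal, mean signal and background), on hg19. Groups came from the sample titles. Here the log2 of the processed signal minus that of the array's 75th percentile was taken over non-control spots, outlier-flagged spots were dropped (4 of 222 member spots; no spot was saturated) and spots of a probe were averaged. A probe counted as well above background on an array when at least 0.5 of its spots did, and was tested when this held on at least 3 of 6 arrays (23105 probes). Tests were limma 3.58.1 (R 4.3.3; lmFit, eBayes) with Benjamini-Hochberg adjustment over all tested probes, called at 2-fold and adjusted p under 0.05. A fold given as "at least" sets the brighter line's mean against, per array, the higher of the dim probe's signal and the lowest signal well above background. Such a probe passed the filter through the brighter line alone, so no p is printed for it. Its call rests on the fitted difference and is included in the counts. On simulated data of 23099 probes the test recovered 53 of 100 probes changed by 1.5 and 84 of 100 changed by 2.5 on the log2 scale, with 4 false calls. No other simulated probe was changed, whereas 21.9% of probes were called higher and 23.7% lower in the data. The adjusted p threshold was therefore stricter in the simulation, and these recoveries are not those of the real comparison.

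The members, gene lists and tests were chosen with earlier results of these data known. Named were all members with all probes and, of each list, up to 6 called genes per direction without overlap between lines, largest change first, plus genes sharing a receptor or ligand with a member; LCN2, CCND1, CEBPB and JUNB were named beyond that rule, after their values were seen. RefSeq matched 18 of 19 member probes, with the same symbol. Alternatives tried were normexp background correction, quantile, median and spike-in scaling, a signal floor, other filters, no fold threshold, the methods' t-test, slide and replicate blocks, the mean of a gene's probes, and leaving out each array. Normexp added an offset of 50 to every intensity, which by construction shrinks the fold changes of dim probes. Another gene of the family is not reported here.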

Additional observations from a re-analysis of the deposited data

How the results depend on the processing

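No IL-6 family member that was called reversed under any alternative, and LIF, IL6R, OSMR and IL6ST kept their call under all of them: LIF ran from 2.00 to 3.92, IL6R from 1.48 to 3.16, OSMR from 1.23 to 3.33 and IL6ST from -2.54 to -1.73 on the log2 scale. Normexp gave the lowest value of the first 3 and the mean of the probes that of IL6ST. The median log2 difference of all genes was 0.04 as reported, -0.21 with normexp and 0.26 with spike-in scaling; relative to it, SOCS3 was -1.11 as reported, -0.65 with normexp and -1.11 with spike-in scaling, and IL11 was 2.40, 1.15 and 2.40. Members called lower then numbered 1 with normexp and 1 with spike-in scaling, IL6ST in both. STAT3 was called higher with spike-in scaling (1.07) and with no fold threshold. LIFR gave no value under the filter that asks for signal above background on all 6 arrays.

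Normexp called 3004 probes and 2563 genes higher, against 5054 and 4016. It left 1 other family gene higher and 1 lower, 0 negative regulators and 0 shedding genes lower, and 6 STAT3-list genes higher. Spike-in scaling left 0 shedding genes and 1 STAT3-list gene lower, and the floor 1 other family gene lower. The filter on all 6 arrays left 1 other family gene higher and 1 lower. Negative regulators called lower numbered 2 with quantile normalization, 2 with median scaling, 2 without the filter and 2 with slide as a block, which also gave 4 STAT3-list genes lower. Without a fold threshold 1 kinase or STAT gene was higher and 5 lower, and 3 negative regulators were lower. Leaving out each array in turn gave 1 to 2 negative regulators lower (2 without pLUM replicate 3 or pLB replicate 3) and 0 to 1 shedding genes (0 without pLUM replicate 3 or pLB replicate 1). Without pLB replicate 2 SOCS3 lost its call and LIFR gained one. The normexp offset of 50 was larger than the pLUM intensities of LIF, IL11, IL6R and OSMR, at 17.9 to 37.6. How much of the normexp changes came from the offset was not tested, nor was the cause of the others.

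The replicate numbers did not pair the arrays: same-numbered deviations correlated at -0.27, -0.09 and -0.22. With the replicate block 3970 genes were called higher and 4008 lower, against 4016 and 4068, and members stayed at 4 higher and 2 lower; the block moved no count by over 1.5 times. The methods' t-test put 13 of the 16 member probes at or under its p threshold and 12 after Benjamini-Hochberg adjustment, against 14213 and 12758 of all 23105 probes, and with the 2-fold threshold it called 4 member probes higher and 8 lower.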
